A study of Mus musculus with 20 samples.

Results

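The 50 genes described here carry out DNA replication and mitosis. They were taken by a list of gene names from the 21884 genes of the deposited table, where each has 1 row. Of the 50, 29 act mainly around the start and course of S phase and are called S-phase members. The other 21 act mainly from G2 to the end of mitosis and are called mitosis members, although some, such as Ccna2, are not confined to that time. All 50 passed the filter on low values (at least 1 CPM in at least 7 of 14 libraries) and are among the 11677 genes tested. CPM is the read count of a gene scaled to a common library total and is not corrected for gene length, so levels are compared between libraries and not between genes.

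A dividing cell copies its DNA in S phase and separates the copies in mitosis. Before S phase, Cdc6 and Cdt1 load the MCM helicase onto replication origins, E2F transcription factors and cyclin E start the genes of replication, and ribonucleotide reductase supplies the deoxynucleotides. Before mitosis, cyclin B with Cdk1, the Aurora and Polo kinases and the factors FOXM1 and B-MYB take over, and the anaphase-promoting complex ends mitosis by marking cyclins for destruction. Since each transcript is made in its own part of the cycle, the level of these genes in a culture follows how many cells are cycling and where in the cycle they are, and Mki67 and Pcna are used in tumour pathology as proliferation markers for that reason.

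RNA of 7 malignant mesothelioma (MM) lines was sequenced from MM organoids, grown in 3D in Matrigel, and from the same lines in 2D culture, with 1 library per line and culture. Each line came from the tumour or ascites of 1 C57/BL6 mouse injected into the peritoneum with a fibre. Crocidolite, an asbestos, was the fibre for m28, m54, m5, m12 and m60 (all p53+/-) and for m67 (WT), and carbon nanotube for m107 (p53+/-). The study's table of lines gives m28, m54 and m107 as sarcomatoid (spindle-shaped tumour cells), m5, m12 and m60 as biphasic (spindle-shaped and epithelial-like cells together) and m67, taken from ascites, as not determined, whereas a figure legend of the study names m12 epithelioid and m5 sarcomatoid. By the study's methods, organoids grew without serum in a medium with EGF, R-spondin1, Noggin and the ROCK inhibitor Y-27632, and 2D cells in medium with serum, while the growth protocol among the labels names the serum medium for all samples. Matrigel, the shape of the culture and the medium therefore cannot be told apart. The comparison asks what changes when the same line, by its label, grows as organoids, and n is the number of lines. For m5 and m12, whose libraries differed between cultures as given below, the pairing rests on the labels alone.

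Some libraries stood apart from their labels. Libraries held 11545825 to 53911770 reads in 3D and 11134018 to 50495836 in 2D, with m5 and m12 the most deeply sequenced lines in both cultures. Transcripts of 4 Y-linked genes had 0 reads in 3D m5, against 12572 in 2D m5, and 10773 in 3D m12, against 0 in 2D m12. They had 0 reads in 3D and 10 in 2D m28, 171 in 3D and 795 in 2D m54, and at least 1239 in each library of m60, m107 and m67, although the study's methods give male mice. Deviations from the culture means correlated across genes at r = 0.0044 between the cultures of m5 and r = -0.11 between those of m12, against 0.317 to 0.703 for the other lines. In 3D m12, Vim, a mesenchymal filament, had 0.668 CPM, against at least 799 CPM in the other 13 libraries, and 7 epithelial markers summed to 4472 CPM. Of 7 mesothelial markers, 4 were under 1 CPM there, among them the factor Wt1 (0.0371 CPM), while Msln (647 CPM) and Krt19 (2493 CPM) were at their highest of the 14 libraries, and the 7 summed to 3141 CPM, within the range of the other organoids (414 to 4611 CPM). In 3D m67, 8 macrophage markers summed to 2057 CPM, against at most 47.5 CPM in any other library. Results are therefore also given without m5 and m12, and the part of these other cell types in them was not tested.

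The promoters of the members are shown first, because they differ between the 2 groups of genes in a way that the choice of the genes did not use. RefSeq promoters (250 bases before to 50 after the start, build GRCm38.p6) were at hand for 39 of the 50 members, as 25 promoters of S-phase members and 16 of mitosis members, without Kif20a, Prim2, Tpx2, Aurkb, Mcm4, Pole, Gins1, Gins2, Ccne2, Ccna2 and Foxm1. They were searched on both strands for 2 spellings of the E2F site (TTTCCCGC or TTTGGCGC) and for the CCAAT box, bound by NF-Y (CCAAT). They were also searched for the cell cycle homology region or CHR, bound by the DREAM and MYB-MuvB complexes (TTTGAA or TTCGAA). None of these motifs contains another. An E2F site in these spellings was in 7 of 25 S-phase promoters (28%) and in 0 of 16 mitosis promoters, against 1.56% of all 32851 promoters of the table. A CHR was in 13 of 16 mitosis promoters (81.2%) and 3 of 25 S-phase promoters (12%), against 19.2% of all promoters, and a CCAAT box in 15 of 16 (93.8%) and 17 of 25 (68%), against 37.4%. In a shorter window, from 100 bases before the start, the E2F share of S-phase promoters was 12%, beside 0.852% of all promoters, the CHR share was 81.2% of mitosis and 8% of S-phase promoters, beside 8.59%, and the CCAAT share 81.2% and 60%, beside 23.4%. The CHR matches in mitosis promoters had their middle position 21 bases before the start. A match describes the letters only. Other spellings of the E2F site were not searched, such as TTTCGCGC, which the Cdk1 promoter below holds in small letters. The E2F shares are therefore those of the searched spellings.

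The following 4 promoters are examples from both groups, read 5′ to 3′ on the strand of the gene, with every match in capitals. They were found once each, base for base, in GRCm39, at chr7:102090652-102090951 (plus strand) for Rrm1, the large subunit of ribonucleotide reductase, at chr8:75835887-75836186 (plus strand) for Mcm5, a subunit of the MCM helicase, at chr10:69188693-69188992 (minus strand) for Cdk1, the kinase that starts mitosis, and at chr4:118294491-118294790 (minus strand) for Cdc20, the activator of the anaphase-promoting complex.
Rrm1: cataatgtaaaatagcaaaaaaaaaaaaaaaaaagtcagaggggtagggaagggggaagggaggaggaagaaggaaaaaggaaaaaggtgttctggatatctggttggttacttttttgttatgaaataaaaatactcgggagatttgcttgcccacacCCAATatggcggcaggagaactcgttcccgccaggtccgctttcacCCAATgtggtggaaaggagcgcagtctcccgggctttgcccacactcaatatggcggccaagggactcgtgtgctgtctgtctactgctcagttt
Mcm5: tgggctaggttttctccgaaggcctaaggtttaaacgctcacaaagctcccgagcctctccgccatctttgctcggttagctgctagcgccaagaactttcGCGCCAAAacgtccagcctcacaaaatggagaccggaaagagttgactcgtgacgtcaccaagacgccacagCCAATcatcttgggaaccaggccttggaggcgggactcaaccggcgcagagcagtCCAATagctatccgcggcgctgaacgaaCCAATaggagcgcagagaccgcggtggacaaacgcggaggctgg
Cdk1: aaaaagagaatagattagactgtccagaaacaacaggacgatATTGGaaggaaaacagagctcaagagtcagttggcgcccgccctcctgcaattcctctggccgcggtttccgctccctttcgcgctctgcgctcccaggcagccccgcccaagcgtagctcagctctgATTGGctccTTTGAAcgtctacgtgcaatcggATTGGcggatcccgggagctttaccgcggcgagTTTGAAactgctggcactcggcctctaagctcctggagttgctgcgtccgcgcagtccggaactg
Cdc20: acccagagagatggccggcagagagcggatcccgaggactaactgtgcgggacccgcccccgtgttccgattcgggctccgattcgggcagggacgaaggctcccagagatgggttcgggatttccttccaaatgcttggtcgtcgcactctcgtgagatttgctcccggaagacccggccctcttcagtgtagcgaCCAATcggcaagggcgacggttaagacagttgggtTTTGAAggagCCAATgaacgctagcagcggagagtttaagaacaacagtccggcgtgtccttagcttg
Rrm1 held 2 CCAAT boxes, 91 and 45 bases before the start, and no match to the other motifs. Mcm5 held an E2F site on the opposite strand, 149 bases before the start, and 3 CCAAT boxes. Cdk1 held 2 CHR matches, 71 and 15 bases before the start, with 3 CCAAT boxes on the opposite strand, and Cdc20 held 1 CHR, 18 bases before the start, between 2 CCAAT boxes.

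Over the 7 lines, the transcripts of all 50 members averaged lower in MM organoids than in 2D, but only Rrm1 passed the test. In these bulk samples, fewer cycling cells and less RNA of these genes per cycling cell cannot be told apart. The log2 fold change, 3D over 2D on log2(CPM + 1), ran from -1.28 to -0.03 among S-phase members and from -1.04 to -0.32 among mitosis members. Its median was -0.38 for S-phase members and -0.72 for mitosis members, against 0.06 for all tested genes. It was negative for 5128 of all 11677 tested genes. Lines were paired in limma and p-values adjusted by the Benjamini-Hochberg method over all tested genes, with a threshold of 0.05. By this test 1 of 29 S-phase members and 0 of 21 mitosis members were lower, beside 1.18% of all genes, and 0 members were higher, beside 2.1%. At an unadjusted p under 0.05, 3 S-phase and 5 mitosis members were lower, beside 8.69% of all genes. On the reads behind the CPM, edgeR called Rrm1 alone (0.42% of all genes lower), and DESeq2 called 3 S-phase members (Rrm1, Rrm2, Ccne2) and 3 mitosis members (Bub1, Kif20a, Foxm1), beside 7.48% of all genes.

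**Figure D1:**
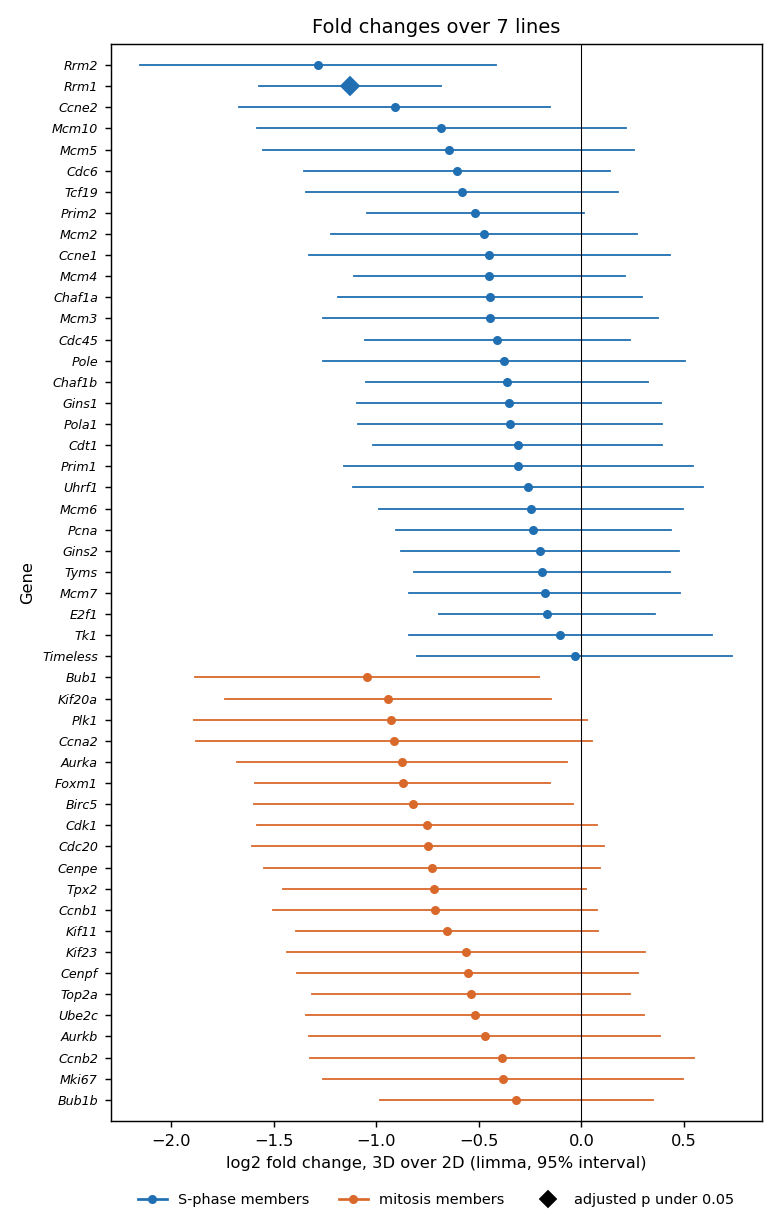
Log2 fold changes of the 50 members, 3D over 2D, with 95% confidence intervals from limma over 7 lines (S-phase members above, mitosis members below, the diamond for an adjusted p under 0.05). All 50 points lie below 0, and the interval of Rrm1 is the narrowest of the 3 largest changes.

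The average hides a wide spread between lines, which the plot of members by line shows. In m60 and m5, 50 of 50 members were lower in 3D, in m12 40, in m28 34, in m54 27, in m67 19 and in m107 only 1, Rrm1. Of all 11677 tested genes, between 4336 (m67) and 5908 (m60) were lower in 3D in a line. Line m60 had the most negative difference for 45 of the 50 members, and its organoid library was the lowest of all 14 libraries for 47. Line m107 had the highest difference for 38, and its 2D library was the lowest 2D library for 47. Without m60 the median log2 fold change was -0.11 for S-phase and -0.37 for mitosis members. Without m5 and m12 it was -0.17 and -0.67, and without m5, m12 and m60, chosen after seeing the data, 0.26 and -0.18, so that for S-phase members the sign turned.

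**Figure D2:**
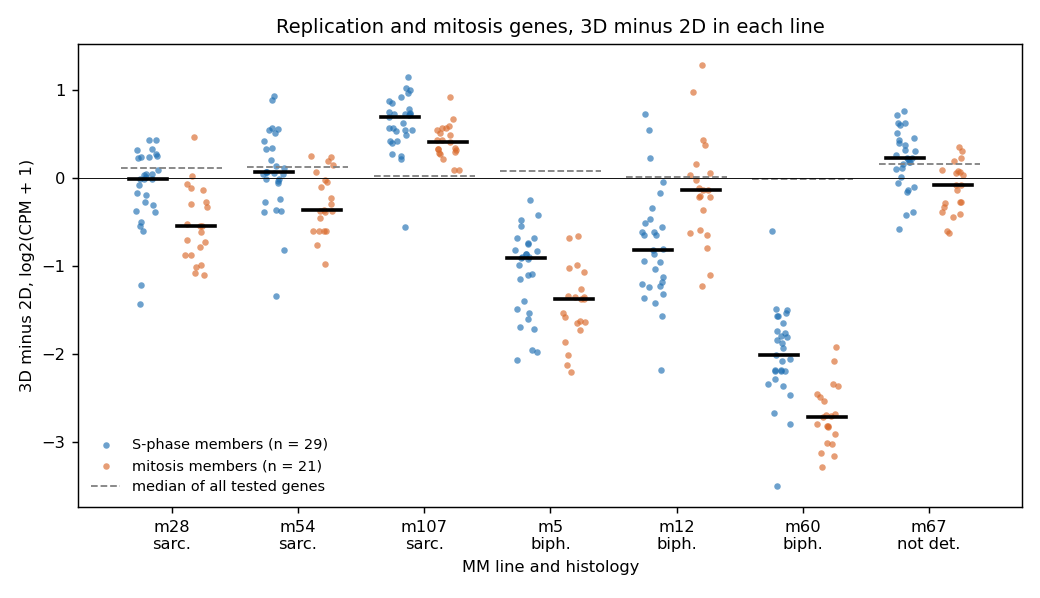
Difference between 3D and 2D on log2(CPM + 1) for each S-phase member (blue) and mitosis member (orange) in each line, by histology (sarc., sarcomatoid; biph., biphasic; not det., not determined), with black bars for medians and dashed lines for the median of all tested genes. All points of m60 and m5 lie below 0 and nearly all of m107 above it, and the orange bar lies below the blue bar in every line but m12.

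Rrm1, which with Rrm2 forms ribonucleotide reductase and lies at chr7:102090890-102119709 in GRCm39 (plus strand, protein-coding), was the member whose difference spread least between lines. It had 80.1, 244 and 339 CPM (lowest, median and highest of 7) in MM organoids, against 323, 505 and 691 CPM in 2D. Organoids of m60 were the lowest and those of m67 the highest, and only 3D m67 overlapped the 2D range. The log2 difference was -1.43 in m28, -0.82 in m54, -0.56 in m107, -1.53 in m5, -0.96 in m12, -2.02 in m60 and -0.57 in m67. The transcript fell in MM organoids to 0.458 times its 2D level (log2 fold change -1.13 ± 0.195 SE, n = 7 lines, limma adjusted p = 0.0306). Rrm1 was 1 of 50 members lower in 7 of 7 lines, beside 3.9% of all genes. In m28, m107 and m67 it was the most negative of the 29 S-phase members and in m54 the second, whereas in m5, m12 and m60, where nearly all members were lower, it ranked 7, 12 and 15. The fold change held its direction with each line left out (-0.98 to -1.22), but the limma adjusted p was 0.0815 without m5, 0.0575 without m60, 0.0926 without m28, 0.0789 without m54 and 0.0653 without m67, and under the threshold only without m12 (0.0265) or m107 (0.0298). Without m5 and m12 together the log2 fold change was -1.08 with an adjusted p of 0.06.

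The other genes of nucleotide supply differed among themselves. Rrm2, the small subunit whose level limits the enzyme in S phase, had 19.1, 88.2 and 257 CPM in MM organoids, against 111, 228 and 336 CPM in 2D. It was lower in 6 of 7 lines, with differences between -3.51 in m60 and 0.27 in m107, and its log2 fold change of -1.28 ± 0.381 (SE, n = 7) missed the threshold in limma (adjusted p = 0.0891). Tyms and Tk1, which supply thymidylate by synthesis and by salvage, stood at -0.19 and -0.10 and were lower in 3 and 2 of 7 lines. Thus the subunits of the reductase lay at the low end of the S-phase members and the thymidylate enzymes near the high end.

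The 6 subunits of the MCM helicase, which unwinds DNA at the fork, were lower in the biphasic lines and mixed elsewhere. Their log2 fold changes ran from -0.65 (Mcm5) to -0.18 (Mcm7), with a median of -0.45 and adjusted p of at least 0.339 in limma. Mcm2 had 42.9, 226 and 299 CPM in MM organoids, against 97.7, 277 and 376 CPM in 2D, with m60 lowest in 3D and m107 lowest in 2D and wide overlap. All 6 subunits were lower in m5, m12 and m60 and all 6 higher in m107 and m67. Mcm5 had 35.6, 219 and 564 CPM in MM organoids, against 161, 328 and 384 CPM in 2D, so that the organoids held its lowest and its highest level. Its difference was -2.79 in m60 and 0.55 in m54.

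Of the genes of origin licensing and firing none passed the test (adjusted p of at least 0.278 in limma). Cdc6, which loads the helicase with Cdt1, had 8.86, 33.6 and 75.5 CPM in MM organoids, against 23.1, 48.2 and 69.4 CPM in 2D, and its log2 fold change was -0.61 ± 0.327 (SE, n = 7). It was lower in 5 of 7 lines, the exceptions being m107 (0.88) and m67 (0.12). Mcm10, which helps to fire origins, had the most negative fold change of the 6 genes (-0.68) and Gins2, of the GINS part of the active helicase, the least (-0.20).

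Among polymerases, clamp and fork proteins the smallest p was that of Prim2, the large primase subunit. It had 21.3, 33.0 and 60.1 CPM in MM organoids, against 32.7, 47.9 and 62.4 CPM in 2D, and was lower in 6 of 7 lines, with a log2 fold change of -0.52 ± 0.232 (SE, n = 7, limma adjusted p = 0.205). Pcna, the sliding clamp of the polymerases and a proliferation marker, had 73.8, 241 and 365 CPM in MM organoids, against 154, 252 and 345 CPM in 2D, and medians of the cultures lay close. It was lower in 4 of 7 lines, and its log2 fold change was -0.23 ± 0.295 (SE, n = 7, limma adjusted p = 0.647). Timeless, which protects the fork, lay nearest to no difference of all 50 members (-0.03), with 3 lines lower and 4 higher.

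Chromatin assembly genes and the G1/S regulators were led by Tcf19 and Ccne2. Tcf19, a chromatin-binding growth gene, had 19.2, 44.4 and 133 CPM in MM organoids, against 32.5, 94.2 and 113 CPM in 2D, with differences of at most -1.32 in m5, m12 and m60 and of -0.0049 to 0.38 in the other 4 lines. Ccne2, the cyclin E2 that drives entry into S phase, had 6.55, 20.2 and 47.7 CPM in MM organoids, against 15, 38.05 and 64.1 CPM in 2D. It was lower in 6 of 7 lines, with a log2 fold change of -0.91 ± 0.332 (SE, n = 7), and missed the threshold in limma (adjusted p = 0.139). Its relative Ccne1 stood at -0.45 and was lower in 4 lines, and E2f1, the transcription factor of the G1/S genes, at -0.17 and lower in 3 lines.

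**Figure D3:**
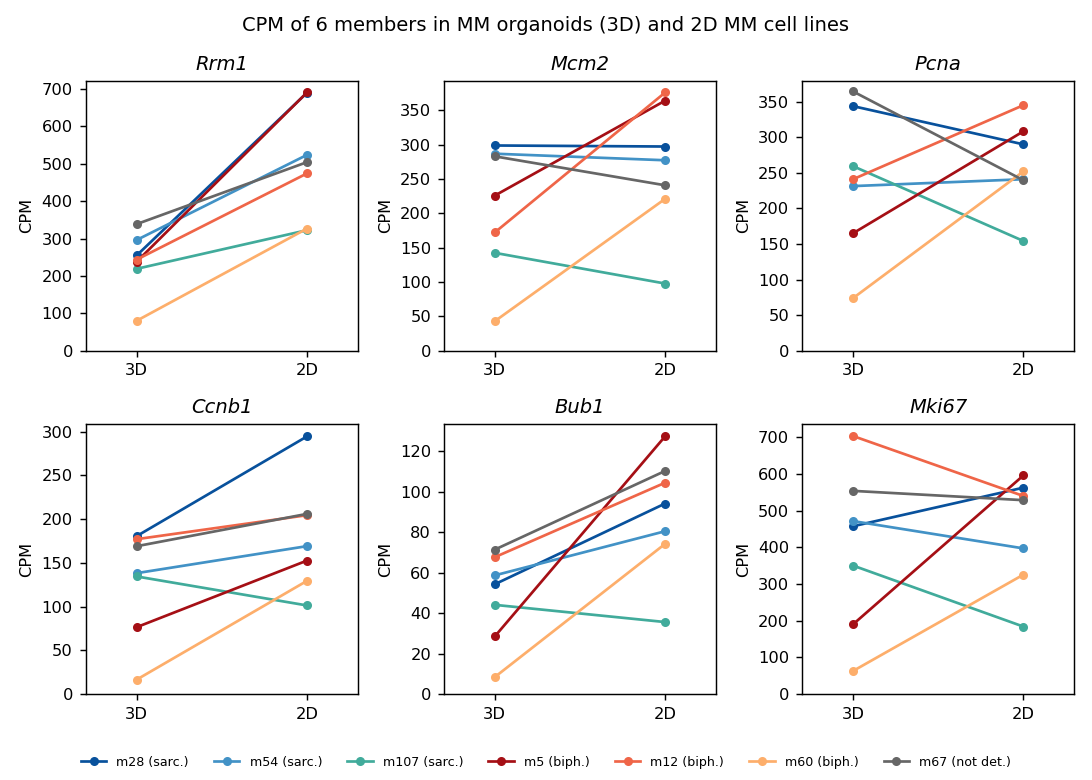
CPM of 6 members in MM organoids (3D, left) and 2D MM cell lines (2D, right), with a line for each MM line, coloured by line and histology. All 7 lines of Rrm1 are lower in 3D, while m107 is higher in 3D for the other 5 genes and the m60 organoids are lowest throughout.

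Among the mitosis members the cyclins that drive Cdk1 differed among themselves. Ccna2, cyclin A2, had 21.3, 133 and 302 CPM in MM organoids, against 106.9, 289 and 321 CPM in 2D. Its difference ran from -3.17 in m60 and -2.21 in m5 to 0.21 in m107, and its log2 fold change was -0.91 ± 0.424 (SE, n = 7, limma adjusted p = 0.218). Ccnb1, cyclin B1, had 16.3, 138 and 181 CPM in MM organoids, against 101, 169 and 295 CPM in 2D, and was lower in 6 of 7 lines (-0.71 ± 0.347 SE, limma adjusted p = 0.236). Organoids of m60 stood far below the other 6 in this gene. Cdk1 had 23.1, 116 and 166 CPM in MM organoids, against 67.8, 156 and 252 CPM in 2D (-0.75 ± 0.363 SE, limma adjusted p = 0.233). Ccnb2, cyclin B2, was lower in 3 of 7 lines, with a difference of 1.29 in m12 and -2.02 in m5.

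The mitotic kinases and the passenger complex had the most negative median of the role groups (-0.85), and 0 of 6 were called by limma, where 3 had an unadjusted p under 0.05, 0 by edgeR and 1, Bub1, by DESeq2, beside the 1.18%, 8.69%, 0.42% and 7.48% of all genes that were lower by the same rules. Bub1, a kinase of the spindle checkpoint, had 8.33, 54.3 and 71.4 CPM in MM organoids, against 35.6, 94.3 and 128 CPM in 2D. It was lower in 6 of 7 lines, all but m107, and its log2 fold change was -1.04 ± 0.368 (SE, n = 7, limma adjusted p = 0.129). Aurka, the kinase of the spindle poles, and Birc5, survivin of the chromosomal passenger complex, stood at -0.87 and -0.82 and were each lower in 6 lines. Plk1, the Polo kinase, stood at -0.93, with -3.29 in m60. Aurkb (-0.47) and Bub1b (-0.32) were nearer to 0.

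Cdc20 and Ube2c, the activator and the ubiquitin-conjugating enzyme of the anaphase-promoting complex, stood at -0.75 and -0.52 and were each lower in 5 lines. Cdc20 had 16.7, 111 and 248 CPM in MM organoids, against 80.9, 193 and 273 CPM in 2D. Of the spindle motors and kinetochore genes, Kif20a, a motor of cytokinesis, had 22.9, 139 and 206 CPM in MM organoids, against 145, 178 and 325 CPM in 2D, and a log2 fold change of -0.94 ± 0.349 (SE, n = 7, limma adjusted p = 0.144). Its organoid level was under that of 2D in 6 lines, and 3D m5, m12 and m60 took differences of at most -1.22. The other 5 genes of this group ran from -0.73 (Cenpe) to -0.55 (Cenpf).

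Foxm1, the transcription factor of the mitotic genes, had 25.3, 104 and 207 CPM in MM organoids, against 67.5, 202 and 298 CPM in 2D. It was lower in 6 of 7 lines, with a log2 fold change of -0.87 ± 0.316 (SE, n = 7, limma adjusted p = 0.137). Mki67, the Ki-67 antigen, had 62.3, 457 and 703 CPM in MM organoids, against 184, 528 and 596 CPM in 2D, and the ranges overlapped almost wholly. Its difference was -2.36 in m60 and -1.65 in m5 but 0.93 in m107, 0.38 in m12 and 0.25 in m54, and its log2 fold change was -0.38 ± 0.385 (SE, n = 7, limma adjusted p = 0.558). Top2a, which untangles the copied chromosomes, stood at -0.54.

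**Figure D4:**
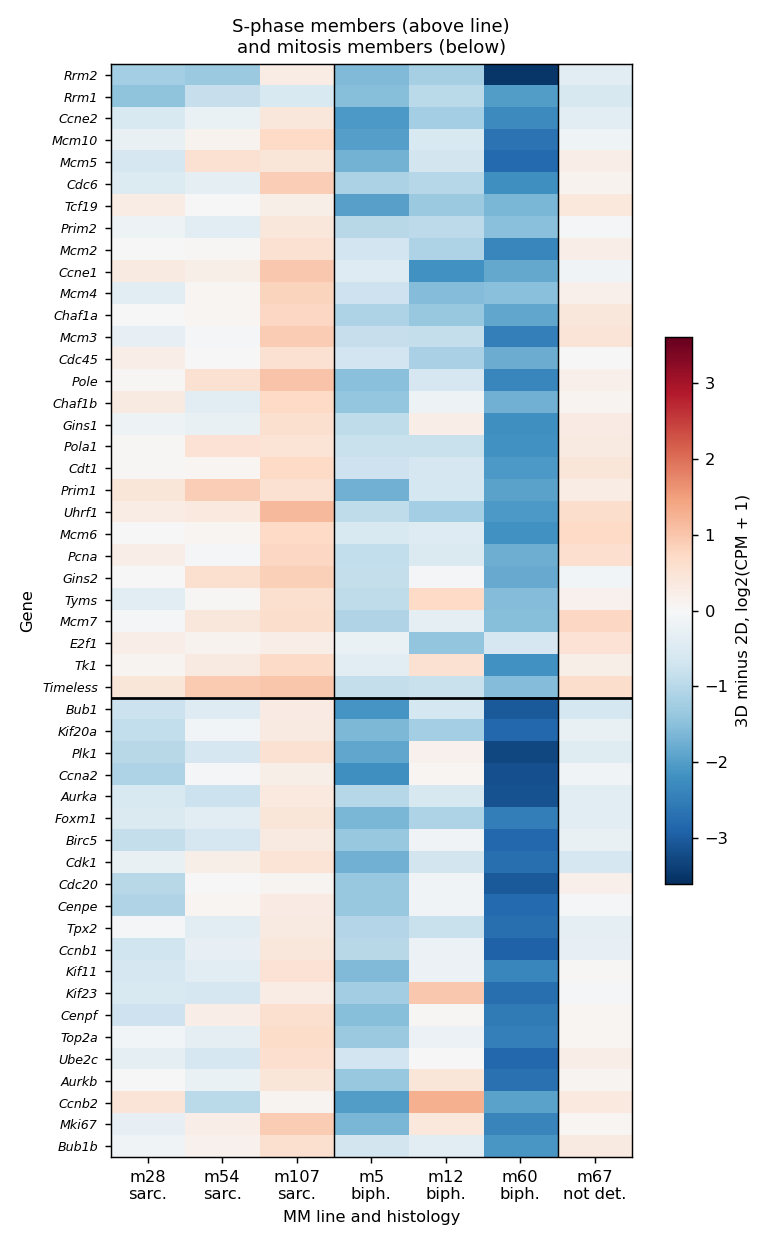
Difference between 3D and 2D on log2(CPM + 1) for each member (rows, S-phase members above the horizontal line, each group ordered by its log2 fold change over 7 lines) in each line (columns, by histology), with blue for lower in 3D. The m60 column is blue for every gene, down to -3.51 for Rrm2, the m107 column is red for all but Rrm1, and Rrm1 is blue in all 7 columns.

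S-phase and mitosis members did not shift by the same amount within a line. The median difference of mitosis members minus that of S-phase members was -0.54 in m28, -0.43 in m54, -0.29 in m107, -0.46 in m5, -0.70 in m60 and -0.31 in m67, and 0.68 in m12. Mitosis members thus lay lower than S-phase members in 6 of 7 lines, and only m12 went the other way. Its organoid library carried the epithelial genes, and its Y-linked reads differed between cultures (10773 in 3D, 0 in 2D). Whether either bears on this exception was not tested. Summed over the members, the S-phase CPM divided by the mitosis CPM was 0.745, 1.28 and 1.90 (lowest, median, highest) in MM organoids, against 0.983, 1.05 and 1.20 in 2D. The organoid value was higher in 6 of 7 lines, m12 again excepted (0.745 in 3D, 1.17 in 2D). The difference between the groups of genes was not tested.

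The summed levels give the size of the shift in each line. The 29 S-phase members summed to 1007, 3154 and 5284 CPM in MM organoids, against 2049, 4460 and 5466 CPM in 2D, and the 21 mitosis members to 529, 3279 and 4232 CPM, against 2041, 4369 and 4719 CPM in 2D. The organoid sum of m60 was 0.247 times its 2D sum for S-phase and 0.155 times for mitosis members, and that of m5 0.474 and 0.371 times. In m107 the organoid sums were 1.46 and 1.41 times the 2D sums, and its 2D sums were the lowest of the 7 lines. In m54 and m67 the S-phase sum was 1.05 and 1.19 times and the mitosis sum 0.865 and 0.948 times that of 2D, and in m28 they were 0.867 and 0.719 times.

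**Figure D5:**
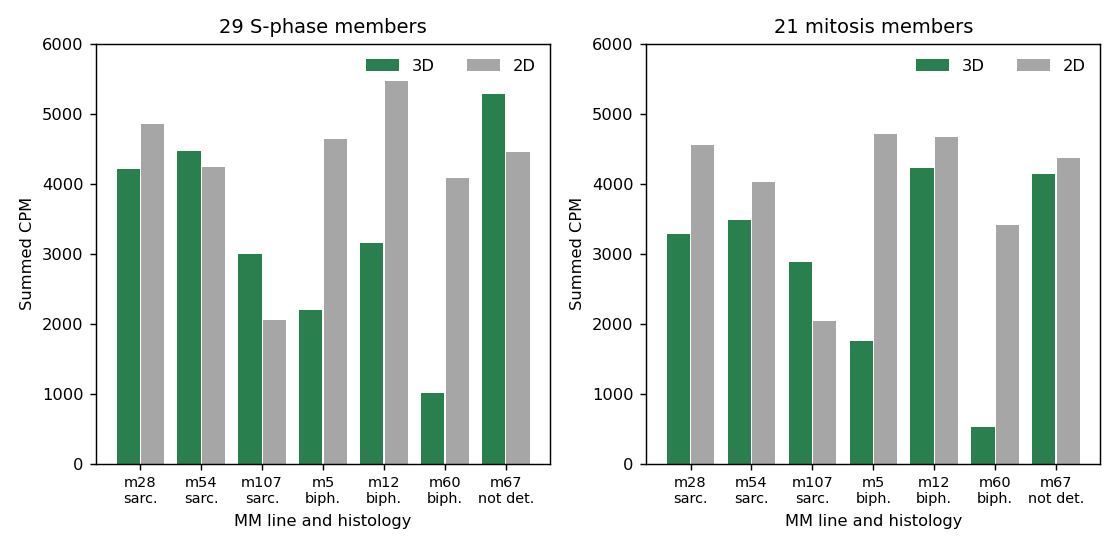
Summed CPM of the 29 S-phase members (left) and the 21 mitosis members (right) in 3D (green) and 2D (grey) for each line, by histology. The m60 organoids are lowest in both panels (1007 and 529 CPM), the 2D library of m107 is lowest among 2D libraries, and the S-phase bar is higher in 3D for m54, m107 and m67.

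By histology, most S-phase members were lower in organoids of the biphasic lines, and their medians lay near or above the 2D level in the sarcomatoid lines. No member passed a test. Mitosis members divided less cleanly by line, with m12 lying among the sarcomatoid lines. Their median difference was -0.55 in m28, -0.36 in m54 and 0.41 in m107, against -1.37 in m5, -0.14 in m12 and -2.71 in m60. The median log2 fold change of S-phase members was 0.23 in sarcomatoid and -1.27 in biphasic lines, and that of mitosis members -0.16 in sarcomatoid and -1.43 in biphasic lines, against 0.10 and 0.01 for all genes. In the limma fit of 12 libraries, with m67 left out, 0 of 50 members were called in sarcomatoid lines, 0 in biphasic lines and 0 for the difference, beside 0% of all genes for each. At an unadjusted p under 0.05, 42 members were lower in biphasic lines (10.3% of all genes) and 2, Timeless and Rrm1, differed in sarcomatoid lines (7.35%). For the difference, 24 S-phase and 6 mitosis members had an unadjusted p under 0.05 with sarcomatoid above biphasic, beside 3.89% of all genes. The smallest adjusted p of any member in limma was 0.855 for the difference and 0.138 for the biphasic lines.

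The lines of the 2 histologies separated for most S-phase members and few mitosis members, a contrast that rested on m12. Every sarcomatoid line's difference lay above every biphasic line's in 23 of 29 S-phase members, beside 7.53% of all genes. The same held in 5 of 21 mitosis members (Cdk1, Bub1b, Kif20a, Tpx2 and Foxm1). In every other member of both groups, m12 was the only biphasic line to overlap, and m5 and m60 lay below all sarcomatoid lines. In Ccnb2, for example, m12 differed by 1.29, against -2.02 in m5 and -1.92 in m60, with -0.97 the lowest sarcomatoid value. Tcf19 had the smallest p for the difference, with 0.16 ± 0.204 (SE, n = 3) in sarcomatoid and -1.64 ± 0.204 in biphasic lines, a gap of 1.80 with a 95% interval of 1.11 to 2.49 (limma adjusted p = 0.855). Timeless had a gap of 1.87 and Prim1, the small primase subunit, of 2.06. Rrm1 was 1 of 6 S-phase members whose lines overlapped, with Rrm2, Tyms, Tk1, Gins1 and Chaf1b. It had -0.94 in sarcomatoid and -1.503 in biphasic lines, a gap of 0.57 with an interval of -0.37 to 1.497. Nucleotide supply as a whole had 0 of 4 genes without overlap, against 6 of 6 MCM subunits and 6 of 6 polymerase, clamp and fork genes. This contrast too rested on m12. For Rrm1, m12 differed by -0.96, above m28 (-1.43), whereas m5 (-1.53) and m60 (-2.02) lay below all sarcomatoid lines.

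The size of these differences depended on which biphasic lines were kept. With all lines the median gap between histologies was 1.46 for S-phase and 1.28 for mitosis members. With m5 and m12 left out, m60 is the only biphasic line, and the median gap between histologies was 2.27 for S-phase and 2.66 for mitosis members. With m60 left out it was 1.09 for S-phase and 0.71 for mitosis members, and with any other line left out it stayed between 1.20 and 1.71 for S-phase and between 1.04 and 1.88 for mitosis members.

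The levels within a culture gave the opposite order in 3D and 2D. In MM organoids all 50 members were higher in sarcomatoid than in biphasic lines, with a median log2 difference of 0.95 for S-phase and 0.99 for mitosis members, and in 2D 46 of 50 were lower, with medians of -0.50 and -0.36. The order in 2D rested on m107: without it 29 of 50 were lower in sarcomatoid lines, with medians of -0.18 for S-phase and 0.0041 for mitosis members. In 3D it was carried in part by m60, without which 43 of 50 were higher, with medians of 0.52 and 0.19. Leaving out lines in this comparison was chosen after seeing the data. For all genes the medians were 0.04 in 3D and -0.05 in 2D, and of 11677 tested genes 5537 were lower in sarcomatoid lines in 3D and 6450 in 2D. In limma, here without line as a block, 0 of 50 members were called in either culture, beside 0% of all genes. At an unadjusted p under 0.05, 12 S-phase members and 1 mitosis member were higher in sarcomatoid lines in 3D (4.08% of all genes). In 2D, 3 S-phase and 0 mitosis members differed by the same rule (2.47%). The smallest adjusted p of a member was 0.647 in 3D.

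Over the 7 lines, other genes of the same processes had the same order of medians, with mitosis genes below replication genes. In m12, where the members went the other way, the median differences of these other genes lay close. They were -0.35 for replication and -0.34 for mitosis genes. Of 38 other replication genes, 26 had a negative log2 fold change, with a median of -0.25, and 0 were called by limma or edgeR and 1 by DESeq2 (7.48% of all genes), with 3 lower at an unadjusted p under 0.05 (8.69% of all genes). The smallest p belonged to Dbf4, the activator of the Cdc7 kinase (-0.74), and Orc2, of the origin recognition complex (-0.62). Of 42 other mitosis genes, 40 were negative, with a median of -0.58, and 0 were called by limma or edgeR and 6 by DESeq2 (7.48% of all genes), with 10 lower at an unadjusted p under 0.05 (8.69%). Cep55 and Anln, which both act in cytokinesis, came nearest in limma (-1.14, adjusted p = 0.0708, and -1.12, adjusted p = 0.0906), and each was lower in 6 of 7 lines, all but m107.

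Of 17 tested E2F, DREAM and MYB factors, 9 were negative and 8 positive, with a median of -0.02. Limma and edgeR called 0 and DESeq2 1 (7.48% of all genes), and 2 were lower at an unadjusted p under 0.05 (8.69%), E2f7, a repressor among the E2F factors (-1.10), and Mybl2, the B-MYB partner of FOXM1 (-1.11). Of 19 G1 cyclins, cyclin-dependent kinases and inhibitors, 8 were negative and 11 positive, with a median of 0.11. Limma called 1 higher, beside 2.1% of all genes, edgeR 0, beside 0.522%, and DESeq2 4, beside 8.67%, and 5 were higher at an unadjusted p under 0.05, beside 16.5%. Btg1, a growth-restraining gene, had 45.0, 123 and 314 CPM in MM organoids, against 26.4, 56.3 and 136 CPM in 2D. Btg1 rose in MM organoids (log2 fold change 1.20 ± 0.228 SE, n = 7 lines, all 7 of them higher) and passed in limma (adjusted p = 0.0357) but not in edgeR. Cdkn1a, the inhibitor p21 and a target of p53, named after its values were seen, had differences of 3.51 in m28, 0.60 in m54, 3.37 in m107, -0.43 in m5, 4.07 in m12, -0.65 in m60 and 1.79 in m67 and did not pass (limma adjusted p = 0.134).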

How the data were processed

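RNA of 7 MM lines was measured by RNA-seq in 3D and 2D culture (14 libraries). The authors deposited CPM values, made with edgeR from reads per gene. Per the submitters' processing notes, the tools before it were Trim Galore 0.6.4, STAR 2.7.9a and HTSeq 0.12.4, and the build was GRCm39. The table also holds a p-value, a q-value and a ranking score of the authors' own comparison, which were not used. The 6 samples of normal mesothelial cells were not analysed here. CPM steps gave whole reads for 100% of values within 0.001 reads, and on these reads edgeR called 61 genes higher and 49 lower in 3D.

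The test covered genes that reached 1 CPM in 7 or more libraries and ran in limma 3.58.1 (R 4.3.3) on log2(CPM + 1) with line as a block, two-sided, with Benjamini-Hochberg adjustment and a threshold of 0.05. The pseudocount makes fold changes of low genes smaller. Lines were paired because the labels give each line in both cultures. For 5 of 7 libraries of 2D culture, the organoid library with the highest correlation came from the same line. Sarcomatoid and biphasic lines were compared in limma on 12 libraries. Since 1 library stands for each line and culture, p-values measure the spread between lines. Alternatives were pseudocounts of 0.1 and 5, no filter and a mean of at least 10 CPM, TMM and quantile scaling, no replicate block, edgeR 4.0.16, DESeq2 1.42.0, subsets of lines and each line left out. The code was tested on simulated data. Values per library are given for members called, for the smallest p of each role group and for Mki67, Pcna, Mcm2, Ccnb1, Cdk1 and Foxm1. From each further list the called genes, or otherwise the 2 with the smallest p, are named. Members and lists were chosen with earlier results of these data known. Gene positions are from the GENCODE annotation of GRCm39.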

Additional observations from a re-analysis of the deposited data

Results flagged for a closer look

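Of 60 groups of 7 values examined, 12 held a value set far apart from the other 6, where chance sets such a value in about 1 of 20 groups, and the groups share libraries. On log2(CPM + 1), the m60 organoids stood below the other organoids for Rrm1 (6.341, or 80.1 CPM), Mcm2 (5.456, or 42.9 CPM), Ccnb1 (4.114, or 16.3 CPM) and Cdk1 (4.592, or 23.1 CPM), and for the mitosis sum (529.405 CPM). The 3D minus 2D difference of Ccnb1 in m60 was -2.912. In 2D, m107 stood below the other lines for Cdc6 (4.59, or 23.1 CPM), Bub1 (5.192, or 35.6 CPM) and Mcm2 (6.625, or 97.7 CPM), for the S-phase sum (2049.31 CPM) and for the mitosis sum (2040.5 CPM). The median difference of mitosis members minus that of S-phase members was 0.677 in m12, above the other 6 lines.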

How the results depend on the processing

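The median log2 fold changes of S-phase and mitosis members stayed negative under every alternative, except that of S-phase members without m5, m12 and m60 (0.26). The count of S-phase members called lower, 1 in limma, was 0 with no filter, with no replicate block, in the 5 crocidolite p53+/- lines, without m5 and m12, and without m5, m12 and m60 (an alternative chosen after seeing the data), 0 to 1 with each line left out, and 3 in DESeq2, which also called 3 mitosis members. The log2 fold change of Rrm1 was -1.13 with no filter (limma adjusted p = 0.0677) and with no replicate block (0.0662), -1.35 in the 5 crocidolite lines (0.0722), -1.08 without m5 and m12 (0.06), -0.85 without m5, m12 and m60 (0.0932) and -1.22 to -0.98 with each line left out. The adjusted p of Rrm1 stayed under the threshold with both pseudocounts, the mean of at least 10 CPM, both scalings, edgeR and DESeq2 (0.0302 to 0.0349 for the pseudocounts). The median difference between histologies in mitosis members was 2.66 without m5 and m12, against 1.28 with all lines. Without m5 and m12 the biphasic group is m60 alone, whose mitosis members had a median difference of -2.71. Why m60 lay lower was not tested. Over all genes, 138 were lower and 245 higher in limma, against 27 and 36 with no filter, 58 and 81 with no replicate block, 49 and 61 in edgeR, 874 and 1012 in DESeq2, 6 and 8 in the 5 crocidolite lines, 59 and 73 without m5, m12 and m60, and 8 to 263 and 14 to 508 with each line left out. The E2F share of S-phase promoters was 12% in a window from 100 bases before the start, against 28% in the whole window.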
